A study of Homo sapiens with 8 samples.

Results

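The transglutaminase genes were examined in adipose derived stem cells (ADSCs) treated with the histone deacetylase inhibitor SAHA. The family was taken by gene symbol as TGM1 to TGM7 and F13A1, and all 8 genes were found among the 18508 genes measured. The family was chosen by the SAHA values of TGM2, already known to have the largest rise on these arrays, and by no value of the other members. Its SAHA values are therefore given as a description, without a test. The cells were ASC52telo, 1 human line of mesenchymal cells from fat that hTERT has immortalized, so the replicates are cultures of 1 line and not different donors. In all groups the cells were deprived of serum for 24 h before the treatment period of 72 h, and fresh medium was then given for 24 h. The SAHA group (3 arrays) received 1000 nM SAHA dissolved in EtOH, the EtOH group (2 arrays) received the vehicle, and the untreated group (3 arrays) received neither. The EtOH and untreated arrays together form the 5 combined controls.

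Transglutaminases are calcium-dependent enzymes that join a glutamine of one protein to a lysine of another, which gives crosslinks that proteases cannot readily cut. Transglutaminase 2 is the widely expressed member and is found inside cells, at the cell surface and in the extracellular matrix, where it binds fibronectin and integrins. Other members work in the epidermis and hair (TGM1, TGM3, TGM5), in the prostate (TGM4) and in blood clotting (F13A1).

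RNA was hybridized to Clariom S arrays, and the values are log2 expression as deposited, with 1 value for each gene and array. The array medians lay between 0.26 and 0.33. The zero point of this scale is not known, and probes differ in brightness, so levels are set side by side only within 1 gene. In all 18508 genes the replicate numbers 1, 2 and 3 had the same mean over their arrays, within 1e-10. A SAHA array that is high for its replicate number thus goes with control arrays that are low for that number, and the differences within 1 replicate number are what this step leaves untouched. A gene was called where limma gave an adjusted p below 0.05 and the fold reached 1.5. All 9 markers of adipose stromal cells had group means of at least 4.04, with VIM at 8.29 in the controls and 8.18 with SAHA. The 10 markers of blood, endothelial and epithelial lineages that such cells should lack had means of 0.59 or below with SAHA and in the combined controls. Of either list 0 were called (3 of the stromal markers and 0 of the others had an unadjusted p under 0.05). Over all genes 0.735% were called and 15.4% had an unadjusted p under 0.05.

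TGM2, which encodes transglutaminase 2, rose in the SAHA group by about an order of magnitude in linear terms, while for no other family member did the estimate reach 1.5-fold. On the SAHA arrays of replicates 1, 2 and 3 its log2 value was 4.52, 4.53 and 5.33. On the untreated arrays it was 1.87, 0.97 and 1.80, and on the EtOH arrays of replicates 1 and 3 it was 1.87 and 1.13. The lowest SAHA array stood above the highest control array by more than the whole range of the controls. The group means were 4.79 ± 0.46 (SD, n = 3) with SAHA, 1.55 ± 0.50 (SD, n = 3) untreated and 1.5 ± 0.52 (SD, n = 2) with EtOH. The arrays read RNA of whole cultures, so more TGM2 RNA per cell and more cells that express it cannot be told apart. In the order of these levels SAHA is set apart, whereas untreated and EtOH are not separated beyond their spread.

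**Figure D1:**
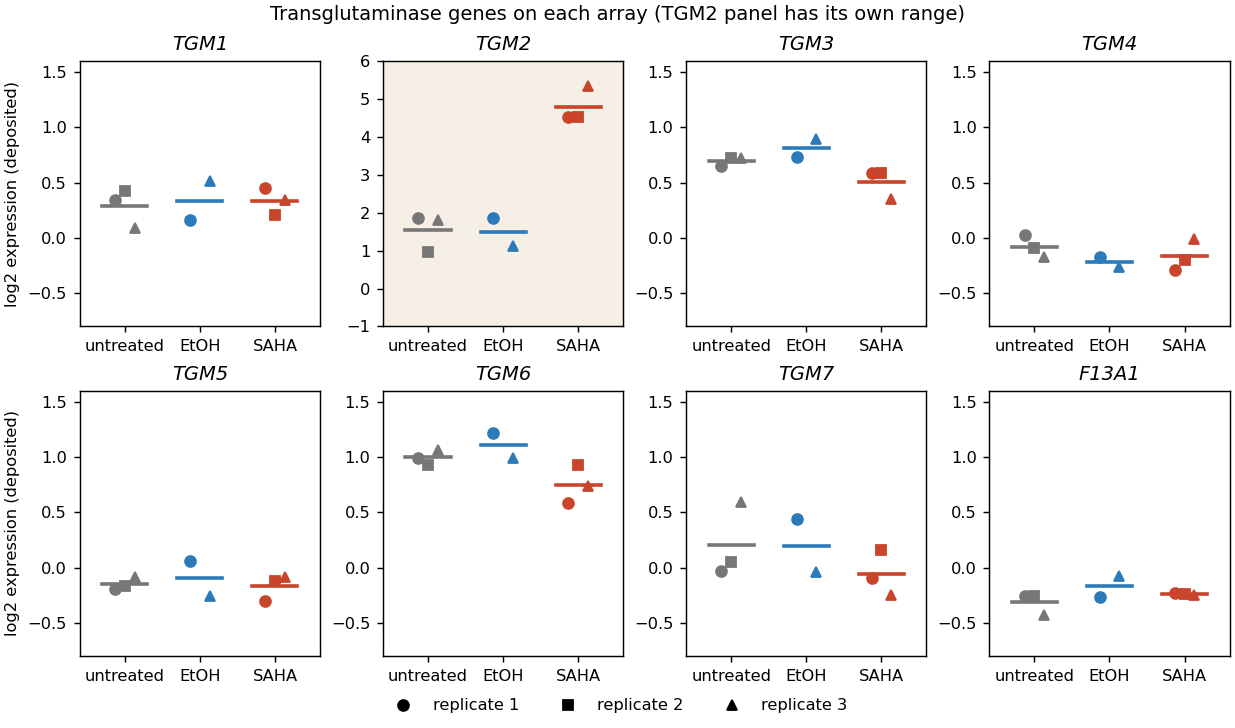
Deposited log2 expression (vertical axis) of the 8 transglutaminase genes in the untreated, EtOH and SAHA groups (horizontal axis). Each point is 1 array, shapes mark the replicate numbers and bars the means of the groups; the SAHA points of TGM2 lie between 4.52 and 5.33, above all 5 control points, and the TGM2 panel has its own vertical range.

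The rise of TGM2 was present within each replicate number. SAHA minus the mean of the controls of the same number was 2.65 on the log2 scale in replicate 1, 3.56 in replicate 2 and 3.87 in replicate 3. In linear terms these are 6.27-fold, 11.8-fold and 14.6-fold, so with these controls the size varied by more than a factor of 2, although the direction did not. Replicate 2 has no EtOH array, and its difference is taken against 1 untreated array. Against the untreated array of the same number alone, the differences were 2.65, 3.56 and 3.53. The spread between replicate numbers thus depends on the controls used. The mean of the 3 differences was 3.36 ± 0.63 (SD, n = 3). No other member had a difference in any replicate number that reached 1 on the log2 scale.

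**Figure D2:**
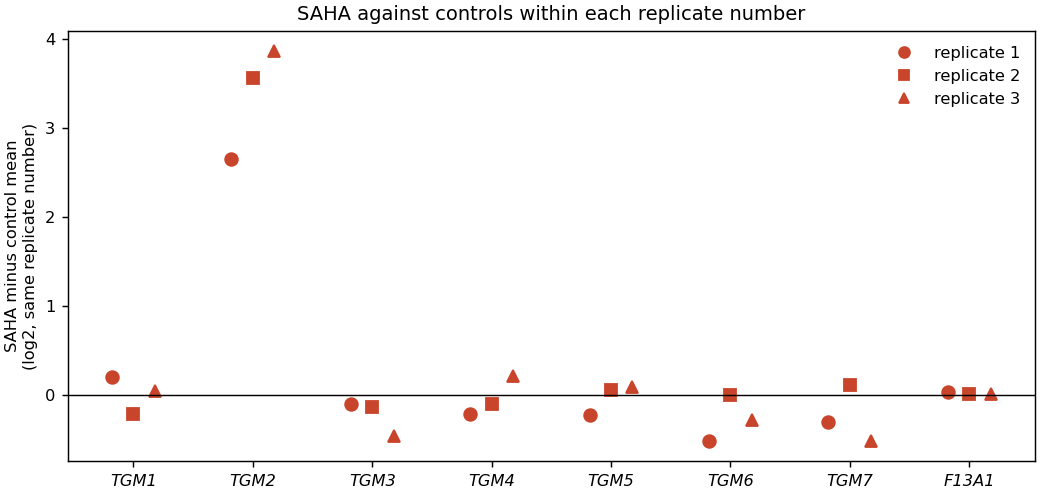
SAHA minus the mean of the controls of the same replicate number (vertical axis, log2) for each transglutaminase gene (horizontal axis). Each point is 1 replicate number; the points of TGM2 lie at 2.65, 3.56 and 3.87, and those of the other 7 genes lie between -0.52 and 0.21.

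In the fit of SAHA against the combined controls (limma over all genes), the log2 fold change of TGM2 was 3.26 (standard error, SE, 0.26, 95% interval 2.69 to 3.84), a fold of 9.61, and the first in rank of 18508 genes. With the replicate number as a block it was 3.34 (SE 0.23). Against EtOH alone it was 3.29 (SE 0.34) and against untreated alone 3.24 (SE 0.31), and these contrasts share the SAHA arrays. TGM2 was the 1 member called higher, 0 were called lower and 7 were not called, where 0.735% of all genes were called in either direction, 0.438% higher and 0.297% lower (15.4% had an unadjusted p under 0.05). In numbers, 81 genes were higher and 55 lower, with 99 and 37 after each array was centred on its median and 36 and 14 with the replicate block. These values chose the family, so nothing is read from the count.

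TGM1, TGM3 and TGM5 encode the transglutaminases of the epidermis and hair follicle. TGM1, which encodes the membrane-bound keratinocyte enzyme that is mutated in lamellar ichthyosis, was at 0.45, 0.21 and 0.34 on the SAHA arrays of replicates 1, 2 and 3. On the controls it ranged from 0.09 to 0.52 with a median of 0.34, so the groups overlapped throughout. Its log2 fold change was 0.03 (95% interval -0.23 to 0.29). TGM3, whose enzyme is active in hair follicle and epidermal terminal differentiation, was at 0.59, 0.59 and 0.35 on the SAHA arrays and at 0.65, 0.72 and 0.73 on the untreated and 0.73 and 0.89 on the EtOH arrays. All 3 SAHA arrays lay below all 5 controls, with a log2 fold change of -0.24 (95% interval -0.45 to -0.02), short of the 1.5-fold threshold of 0.58. TGM5, which is mutated in acral peeling skin syndrome, was between -0.30 and -0.09 on the SAHA arrays and between -0.26 and 0.06 on the controls. Its log2 fold change of -0.04 (95% interval -0.26 to 0.19) lay within the spread of the controls.

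TGM6, a member expressed in the nervous system and linked to a spinocerebellar ataxia, was at 0.58, 0.93 and 0.74 on the SAHA arrays. On the controls it was at 0.99, 0.93 and 1.06 untreated and at 1.22 and 0.99 with EtOH. The SAHA arrays of replicates 1 and 3 were low, whereas SAHA and untreated replicate 2 were both at 0.93. Its log2 fold change was -0.29 (95% interval -0.53 to -0.05). TGM3 and TGM6 were the 2 members with every SAHA array below every control, a pattern that 6.25% of all genes showed. It rested on the scale of the deposited values, since both genes overlapped between SAHA and controls after median centring and after quantile normalization. TGM2 was the 1 member with every SAHA array above every control (4.21% of all genes), and remained so in both scalings.

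TGM7, the least studied member, had the widest control range after TGM2, from -0.04 in EtOH replicate 3 to 0.59 in untreated replicate 3. The SAHA arrays lay at -0.10, 0.16 and -0.24, and overlapped with the controls. Its log2 fold change was -0.26 (95% interval -0.63 to 0.10), so a 1.5-fold fall was not left out. The interval of TGM2 lay wholly above a 1.5-fold rise, and those of the other 6 members left out a 1.5-fold change. These intervals are a description and no test, since TGM2 was chosen by these values. They are not adjusted for the number of genes and can be too narrow, because the main fit does not count the centring. In a gene of very low signal, a narrow interval does not show that no change took place. TGM4, the prostate transglutaminase, was between -0.29 and -0.01 with SAHA and between -0.27 and 0.02 in the controls. F13A1, which encodes the A subunit of coagulation factor XIII and is made by megakaryocytes and macrophages, was at -0.23, -0.24 and -0.25 with SAHA, inside the control range of -0.43 to -0.07. The log2 fold changes of TGM4 and F13A1 were -0.03 (95% interval -0.26 to 0.20) and 0.02 (95% interval -0.20 to 0.23).

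The dim end of the scale was described with 359 olfactory receptor genes, whose mean over the arrays had a median of -0.21 and a 95th percentile of 0.02. TGM4, TGM5 and F13A1 lay below that 95th percentile, at means of -0.15, -0.14 and -0.25, where a fall could hardly be measured. TGM1, TGM3, TGM6 and TGM7 lay above it, with means of 0.32, 0.66, 0.93 and 0.10. The SAHA mean of TGM7 was -0.06, however, so its difference ended in the range where a fall could hardly be measured. Because probes differ in brightness, this places a gene in or out of the dim range and does not order the genes by abundance. EPB42, which encodes erythrocyte protein 4.2, a homologue of the family without enzymatic activity, was in the dim range as well, between -0.31 and 0.07 with SAHA and between -0.51 and -0.18 in the controls. Its log2 difference was 0.13 (SE 0.12, adjusted p = 0.62 in limma).

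The vehicle effect was tested by comparing EtOH with untreated ADSCs. This contrast was not used to choose the family, but the equal replicate means tie it to the SAHA values. Untreated replicate 2 is set low in genes that rise with SAHA, and it enters the untreated mean only. For TGM2 the main estimate of this contrast is therefore shifted upward. In limma, 0 of the 8 members passed, 0 had an unadjusted p under 0.05, and 0% of all genes were called (9.75% had an unadjusted p under 0.05). For TGM2 the log2 fold change was -0.05 (SE 0.34, 95% interval -0.82 to 0.72, adjusted p = 0.98 in limma). It was -0.26 with the replicate block and -0.34 without untreated replicate 2. Over all single arrays left out it ran from -0.42 to 0.32, so the value near 0 depends on the fit. The replicate numbers disagreed, since EtOH minus untreated was -0.0041 in replicate 1 and -0.67 in replicate 3. Among the other members the largest difference was that of F13A1, at 0.15 (95% interval -0.11 to 0.40, adjusted p = 0.69 in limma). The intervals of TGM1, TGM3, TGM4, TGM5, TGM6, TGM7 and F13A1 all stayed within a 1.5-fold change, whereas that of TGM2 did not. TGM2 also varied more among the 5 controls than 98.8% of genes, with an SD of 0.44, and the lowest of them was untreated replicate 2, whose level is tied to that of its SAHA array by the equal replicate means.

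**Figure D3:**
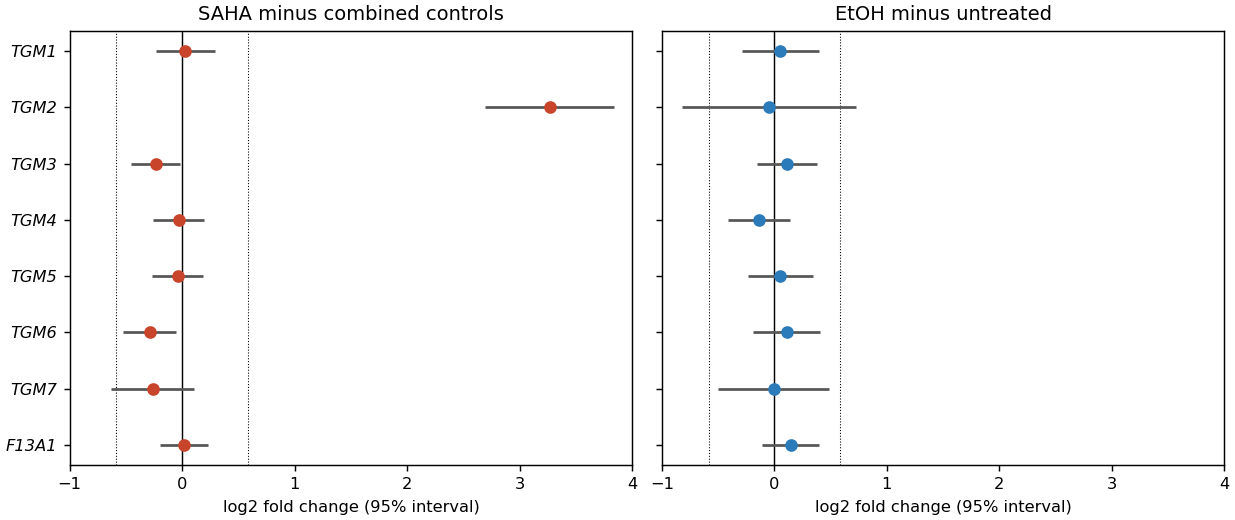
Log2 fold change (horizontal axis) of each transglutaminase gene for SAHA minus combined controls (left) and EtOH minus untreated (right). Points are limma estimates, lines are 95% intervals and dotted lines mark a 1.5-fold change; TGM2 stands at 3.26 on the left and at -0.05 on the right.

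Several transglutaminase genes lie next to each other in the genome. In the RefSeq annotation (GRCh38.p14), TGM2, TGM3 and TGM6 are on chromosome 20, with TGM3 and TGM6 as direct neighbours among the measured genes, and EPB42, TGM5 and TGM7 follow one another on chromosome 15. TGM1 is on chromosome 14, TGM4 on chromosome 3 and F13A1 on chromosome 6. Of the 5 measured genes on each side of TGM2, 0 of 10 were called, with log2 fold changes from -0.20 to 0.37. Over all genes 0.735% were called. The direct neighbours RPRD1B and KIAA1755 had values of 0.12 (SE 0.18) and -0.02 (SE 0.11). The largest differences were those of RALGAPB, which encodes a subunit of a GTPase-activating complex, at 0.37 (adjusted p = 0.16 in limma), and of the imprinted gene NNAT, at 0.21 (adjusted p = 0.52 in limma). Of the 60 genes beside any member, 1 was called: TP53BP1, a DNA damage response gene near TGM5 and TGM7, which fell by 0.70 on the log2 scale (SE 0.14, adjusted p = 0.044 in limma). This call was lost with the replicate block and without any single one of 7 arrays.

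**Figure D4:**
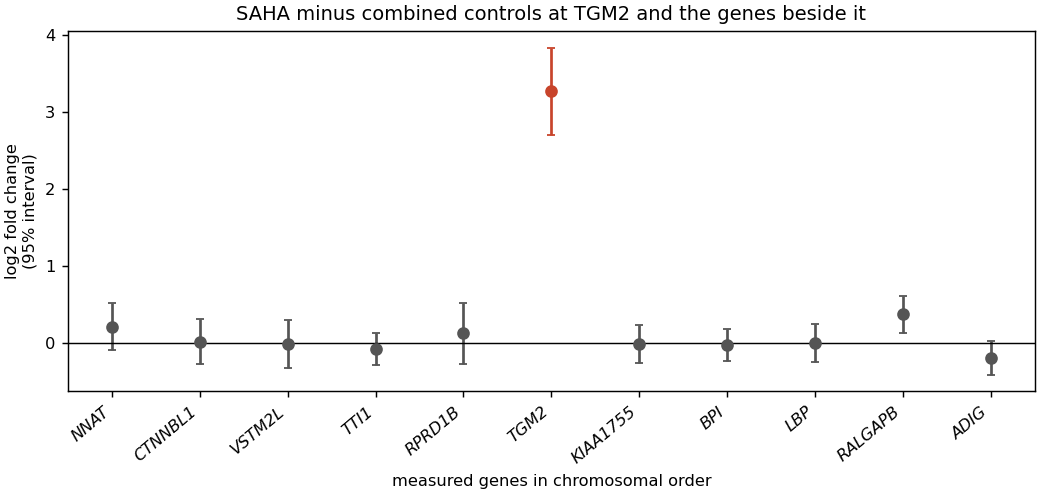
Log2 fold change of SAHA minus combined controls (vertical axis) for TGM2 and the 5 measured genes on each side, in chromosomal order (horizontal axis). Points are limma estimates and bars are 95% intervals; TGM2 is at 3.26 and its neighbours lie between -0.20 and 0.37.

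Related genes were followed in 9 lists of 123 measured genes: partners, substrates, regulators of TGM2, other crosslinking enzymes and genes of the tissues of other members. Of these genes 2 were called higher and 0 lower (20 had an unadjusted p under 0.05). Their median log2 fold change was 0.01, beside -0.03 over all genes. Over all genes 0.735% were called, 0.438% higher and 0.297% lower, and 15.4% had an unadjusted p under 0.05. Among 17 genes of surface and matrix partners of transglutaminase 2 (integrins, syndecans, LRP receptors), 0 passed both thresholds and 4 had an unadjusted p under 0.05 in limma. The largest difference was that of MFGE8, which encodes a secreted integrin ligand, at 0.53 (SE 0.10, adjusted p = 0.035 in limma), a fold of 1.45 and thus short of 1.5. Of 17 matrix proteins that transglutaminases crosslink, 0 passed and 4 had an unadjusted p under 0.05. NID1, which encodes nidogen 1 of the basement membrane, had the largest difference, at -0.56 (SE 0.13, adjusted p = 0.083 in limma). Of 18 intracellular partners and substrates, 0 passed and 2 had an unadjusted p under 0.05 in limma. None of the substrates and partners on these 3 lists was called. At the share over all genes, lists of this size would often hold no called gene, so nothing is read from these counts.

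Among 19 genes that regulate TGM2 transcription through retinoids, TGF-beta, NF-kB or hypoxia, TGFBR2 was called higher and 0 were called lower. Over all genes 0.438% were called higher and 0.297% lower. Of the 19, 4 had an unadjusted p under 0.05 and 9 had a positive log2 fold change. SMAD2 was at -0.59 and CRABP2 at 0.69 (adjusted p = 0.056 and 0.16 in limma), both past 1.5-fold but not called. TGFBR2, which encodes the type II receptor of TGF-beta, was at 5.37, 5.54 and 5.63 on the SAHA arrays and between 4.20 and 4.68 on the controls. The log2 fold change was 1.03 (SE 0.12, adjusted p = 0.0046 in limma), and the call was lost with EtOH arrays only as control. Among 5 other matrix crosslinking genes, the lysyl oxidase family and PXDN, LOXL1 was called higher and 0 were called lower (2 had an unadjusted p under 0.05). LOXL1, whose enzyme crosslinks elastin, was at 4.01, 3.84 and 3.98 on the SAHA arrays and between 2.95 and 3.38 on the controls. The log2 fold change was 0.81 (SE 0.13, adjusted p = 0.018 in limma). The LOXL1 call was lost with the replicate block, at adjusted p = 0.069, and without untreated replicate 2, SAHA replicate 1 or SAHA replicate 3.

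Genes of the tissues in which the other members are known to work were followed as well, and none was called. Over all genes 0.735% were called and 15.4% had an unadjusted p under 0.05. Lists of this size would often hold no called gene at that share, so nothing is read from the counts. Of 22 genes of the cornified envelope and epidermis, 0 passed and 3 had an unadjusted p under 0.05 in limma. FLG, which encodes filaggrin, had the largest difference, at 0.65 (adjusted p = 0.13 in limma), and IVL, the classical substrate of TGM1, was at 0.20. The summed log2 value of the list lay between 1.07 and 3.32 on the SAHA arrays and between -0.37 and 2.07 on the controls. Of 10 partners of factor XIII in the fibrin clot, 0 passed and 1 had an unadjusted p under 0.05, with VWF lowest at -0.48 (adjusted p = 0.094 in limma). Of 6 prostate genes, 0 passed and 0 had an unadjusted p under 0.05, with ACP3 largest at 0.17 (adjusted p = 0.43 in limma). Of 10 genes of monocytes and macrophages, the cells that express F13A1, 0 passed and 0 had an unadjusted p under 0.05, and the largest difference was that of the lysosomal gene CD68, at -0.22 (adjusted p = 0.74 in limma). The leukocyte marker PTPRC was at -0.24 with SAHA and -0.27 in the controls, and CD14 at -0.09 and 0.10.

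**Figure D5:**
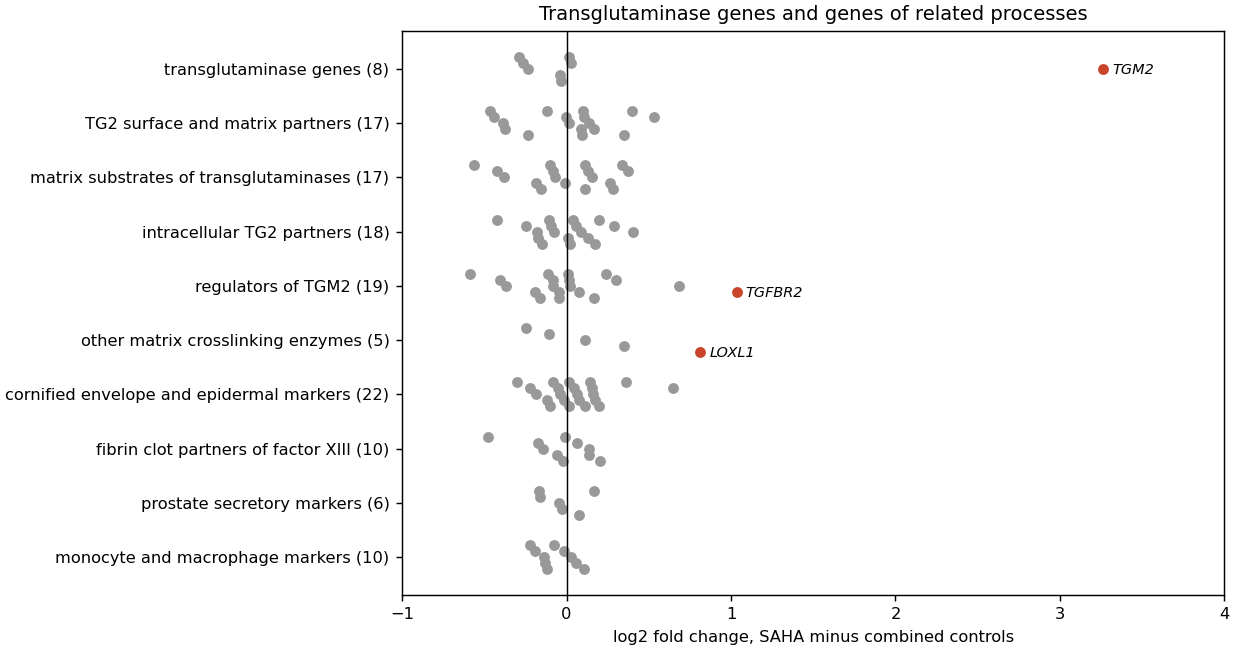
Log2 fold change of SAHA minus combined controls (horizontal axis) for the transglutaminase genes and 9 lists of related genes, with the number of measured genes in brackets. Each point is 1 gene, placed vertically only to avoid overlap; red points were called, namely TGM2 at 3.26, TGFBR2 at 1.03 and LOXL1 at 0.81.

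The genes whose pattern over the 8 arrays was most like that of TGM2 were found by scaling each gene to a mean of 0 and an SD of 1 and taking the root-mean-square difference. They were COX6B1, a respiratory chain subunit gene (0.04), the teneurin gene TENM3 (0.09), SMAD6, which encodes an inhibitory SMAD (0.09), the phosphodiesterase gene GDE1 (0.09), and CDH11, which encodes a cadherin of mesenchymal cells (0.09). These share the shape and not the size of the TGM2 pattern, with log2 fold changes of 0.35, 0.79, 1.20, 0.32 and 0.66. The likeness uses the SAHA values, and the equal replicate means favour this shape in genes that rise with SAHA. Replicate 2 pairs 1 SAHA array with 1 control, which is set low in such genes. With unscaled deviations, CDKN1A, IGFBP5, ADGRL2, MXRA5 and GASK1B were closest, at 0.64 to 0.95 log2 units, and 0 genes were shared between both sets of 5.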

How the data were processed

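Expression of 18508 genes on 8 Clariom S arrays of ASC52telo ADSCs was used. The authors summarized the arrays with oligo, removed 1 EtOH array for low intensity, applied RMA normalization and deposited log2 values with 1 value per gene. The genome build and the version of oligo are not given in the sources used here. Since every gene has the same mean in each replicate number, the values were centred by a step that the methods do not name. It makes spreads between arrays of a group depend partly on the size of the SAHA effect.

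limma 3.58.1 in R 4.3.3 was applied to the unfiltered values. As in the study's methods, SAHA was compared with EtOH and untreated combined, and a 3-group fit gave the other contrasts. The unpaired t-test that the study names for its general statistics, and not for its array calls, is an alternative. Adjusted p-values are Benjamini-Hochberg over all genes, and calls need an adjusted p below 0.05 with a fold of 1.5 or more. The numbers 1, 2 and 3 are shared between groups, with a p followed by 6, 10 and 16 in the labels, whose meaning is not spelled out. The main fit leaves the number out (6 residual degrees of freedom, 4 with the block), and centring prevents a check of the pairing by correlation. P-values measure only the spread between these cultures that the centring left in the values. The main fit does not count the centring in its degrees of freedom, so its p-values can be too small. With the block, 36 genes were called higher and 14 lower, against 81 and 55 without it. Array number limits the precision.

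The members and gene lists were chosen with earlier results of these data known. Named genes are all members and EPB42, up to 3 called genes per list and direction or else the gene with the largest difference, the 2 TGM2 neighbours with the largest differences, called neighbours, and the 5 genes most like TGM2. The result of 1 gene that this rule names is not reported here. Other genes named as examples (VIM, IVL, PTPRC, CD14, RPRD1B, KIAA1755, SMAD2, CRABP2) were picked after their values were seen. Neighbours were the 5 measured protein-coding genes on each side in RefSeq order. Alternatives were quantile normalization, median centring, a filter that dropped the 6169 dimmest genes, an intensity trend, array weights, the replicate block, other choices of control, and each array left out in turn. The fits were tested on simulated data. Protein and TGM2 promoter sequences were not used here.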

Additional observations from a re-analysis of the deposited data

How the results depend on the processing

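The SAHA values of TGM2 chose the family, so its calls are a description and no support. With an unpaired t-test and Benjamini-Hochberg adjustment, which was not the study's method for its arrays, 0 members were called. The share of all genes called by this t-test was not recorded, so this 0 is not read as a result about the family. TGM2 was the 1 member called under 19 of 20 alternatives. Its log2 fold change stayed positive, from 2.996 to 3.40 with single arrays left out, and was 3.34 with the replicate block. TGM3, TGM6 and TGM7 kept a negative log2 fold change under all 17 alternatives of the SAHA comparison, while TGM1, TGM4, TGM5 and F13A1, near 0, took the other direction under 5, 4, 3 and 2 of theirs. TGM4, TGM5 and F13A1 are among the dimmest genes, so the filter gave no value for them.

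In the EtOH comparison 0 members were called in limma under any of 15 alternatives, and TGM7 turned to 0.0095 with the replicate block. With 1 array left out, the log2 fold change ran from -0.13 to 0.23 for TGM1, from -0.42 to 0.32 for TGM2, from -0.11 to 0.21 for TGM5, from -0.0058 to 0.22 for TGM6 and from -0.24 to 0.23 for TGM7, so no direction is given for these 5 genes.

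Of the related genes, 1 was called higher (TGFBR2) with the replicate block and 1 (LOXL1) with EtOH arrays only as control, and 1 to 3 with single arrays left out. The count was 1 without untreated replicate 2, SAHA replicate 1 or SAHA replicate 3, in each case TGFBR2. There was 1 called lower with the 6169 dimmest genes left out (SMAD2) and with equal weight of EtOH and untreated (NID1), and 0 to 1 with single arrays left out. Of the genes beside members, 0 were called with median centring, the intensity trend, the replicate block, equal weight of the controls and either control group alone, and 0 to 1 with single arrays left out (1 without untreated replicate 3). The 5 genes most like TGM2 shared 0 with those from unscaled deviations. These counts for genes beside members were added after the values were seen. Among the members, the related genes and the genes beside members, the block ended the calls of LOXL1 and TP53BP1 and changed no other. The causes were not tested.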
